A study of Mus musculus with 6 samples.

Results

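Smpdl3b encodes a membrane-anchored relative of acid sphingomyelinase, and its transcript was examined here together with 8 other genes of sphingomyelin metabolism: Smpdl3a, Smpd1, Smpd2, Smpd4, Sgms1, Sgms2, Sphk1 and Sptlc2. The 9 genes are 9 of the 24421 in the deposited count table, and all 9 had enough reads to be tested. Smpdl3b was selected because it was higher in the DEK libraries of these same data, so its values are given as a description with no test. The other 8 were chosen by function, with earlier results of these data known. The libraries come from lineage-depleted femoral bone marrow of C57BL/6 mice with the genotype Dek -/-, a deletion that control and treated cells share. One group of 3 libraries was treated with vehicle and the other group of 3 with exogenous DEK, a chromatin-binding protein that blood cells can also release. Dose, duration and source of the protein, and the age of the mice, are not given in the sources used here. The labels also do not say whether the libraries of a group come from separate animals or cultures, so p-values measure the spread between these libraries, which may be technical.

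Sphingomyelin is a major lipid of the outer leaflet of the plasma membrane. Sphingomyelin synthases (Sgms1, Sgms2) make it from ceramide, and sphingomyelinases (acid Smpd1, neutral Smpd2 and Smpd4) split it back to ceramide. The ceramide backbone starts with serine palmitoyltransferase (Sptlc2 is a subunit), and Sphk1 phosphorylates the sphingosine released from ceramide to sphingosine 1-phosphate, a signal that guides the exit of blood cells from tissues. Smpdl3a and Smpdl3b share the phosphodiesterase fold of acid sphingomyelinase. Smpdl3a is secreted and cleaves nucleotides, and Smpdl3b is held on the macrophage surface by a lipid anchor, where it is known as a restraint on Toll-like receptor signalling.

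The promoter of Smpdl3b is shown because its transcript is the one that differed, and that of Smpd1 because it is the founding member of the family. Each window runs 5′ to 3′ from 250 bases before to 50 bases after the start of transcription, as RefSeq gives it on GRCm38.p6, the assembly named mm10 in the files. A window was matched for 8 of the 9 genes, the exception being Smpdl3a. The Smpdl3b window is chr4:132757122-132757421 on the minus strand and the Smpd1 window is chr7:105554110-105554409 on the plus strand. Capitals mark matches, on either strand, to the NF-kB consensus, the E-box CACGTG and the CCAAT box.
Smpdl3b: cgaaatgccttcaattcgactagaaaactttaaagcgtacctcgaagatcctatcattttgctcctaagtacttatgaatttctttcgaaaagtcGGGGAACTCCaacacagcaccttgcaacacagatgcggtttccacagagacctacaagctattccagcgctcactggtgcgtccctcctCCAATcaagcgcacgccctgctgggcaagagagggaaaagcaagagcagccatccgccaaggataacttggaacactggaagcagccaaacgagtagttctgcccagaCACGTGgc
Smpd1: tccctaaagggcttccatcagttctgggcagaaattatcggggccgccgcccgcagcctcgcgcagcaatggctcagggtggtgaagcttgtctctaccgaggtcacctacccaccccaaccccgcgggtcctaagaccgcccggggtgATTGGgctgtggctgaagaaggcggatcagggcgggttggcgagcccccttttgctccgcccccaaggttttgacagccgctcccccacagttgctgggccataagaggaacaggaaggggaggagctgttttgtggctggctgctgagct

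The Smpdl3b window had 1 match to the NF-kB consensus, beginning at -155 from the start of transcription, 1 CCAAT box at -66 and 1 CACGTG at 43. It had no match to the interferon-stimulated response element, to the AP-1 motif TGANTCA, to TATAA or to the GC box GGGCGG. Among all 32841 promoter windows of the same 300 bases, 4.51% held the NF-kB consensus, 7.15% held CACGTG and 37.4% held CCAAT. The Smpd1 window held 1 CCAAT box, as ATTGG beginning at -101, and 4 GC boxes, which 35.7% of all windows hold, and no NF-kB match. Sphk1 had an NF-kB match in 1 of its 5 windows, at 41, and no window of the remaining 6 matched genes had one. A match describes letters and not a bound site.

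Library totals ran from 34875736 to 49128378 counted reads. Vehicle 1 had 4.89% of its counts on the ribosomal RNA gene Rn45s, against 0.159% to 0.331% in the other libraries. Vehicle 3 and DEK 3 stood apart from the rest in cell type markers. Summed neutrophil markers (9 genes) were 65370 CPM in vehicle 3 and 61960 CPM in DEK 3, against 5979 to 7919 CPM in the other 4 libraries. CPM, counts per 1000000 counted reads, uses library totals scaled by TMM. The Dek gene had 16.8 to 21.8 CPM in vehicle and 16.5 to 17.4 CPM in DEK libraries, so its level over the gene as counted does not check the genotype. Progenitor markers (6 genes) were present in every library, with summed levels of 5490 to 7041 CPM in vehicle and 4256 to 6981 CPM in DEK libraries. Equal replicate numbers deviated together and were taken as pairs, so differences within pairs are given beside the group values. Numbers 1 and 2 also deviated together across pairs, so their matching is assumed.

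Smpdl3b (chr4:132732966-132757171, minus strand, mm10) was about 8-fold higher in the DEK libraries. It had 233, 138 and 233 reads in vehicle libraries 1, 2 and 3, and 975, 2081 and 2781 reads in DEK libraries 1, 2 and 3. These are 4.73, 3.45 and 6.94 CPM with vehicle and 21.8, 41.0 and 64.4 CPM with DEK. The groups did not overlap, and the lowest DEK library stood above the highest vehicle library. The mean was 5.04 ± 1.76 CPM (SD, n = 3) with vehicle and 42.4 ± 21.3 CPM (SD, n = 3) with DEK, a ratio of means of 8.41. Within pairs 1, 2 and 3 the log2 CPM was higher by 2.19, 3.55 and 3.21. Over the main fit and 16 alternative settings, its fitted fold change ran from 6.21 to 10.5. By the fitted difference within pairs it ranked 2 of 13803 tested genes, and it was 1 of 22 genes more than 2-fold higher in all 3 pairs. As a background for these values, 522 of 13803 tested genes (3.78%) had all DEK libraries above all vehicle libraries, and 993 (7.19%) had groups that did not overlap in either direction.

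**Figure D1:**
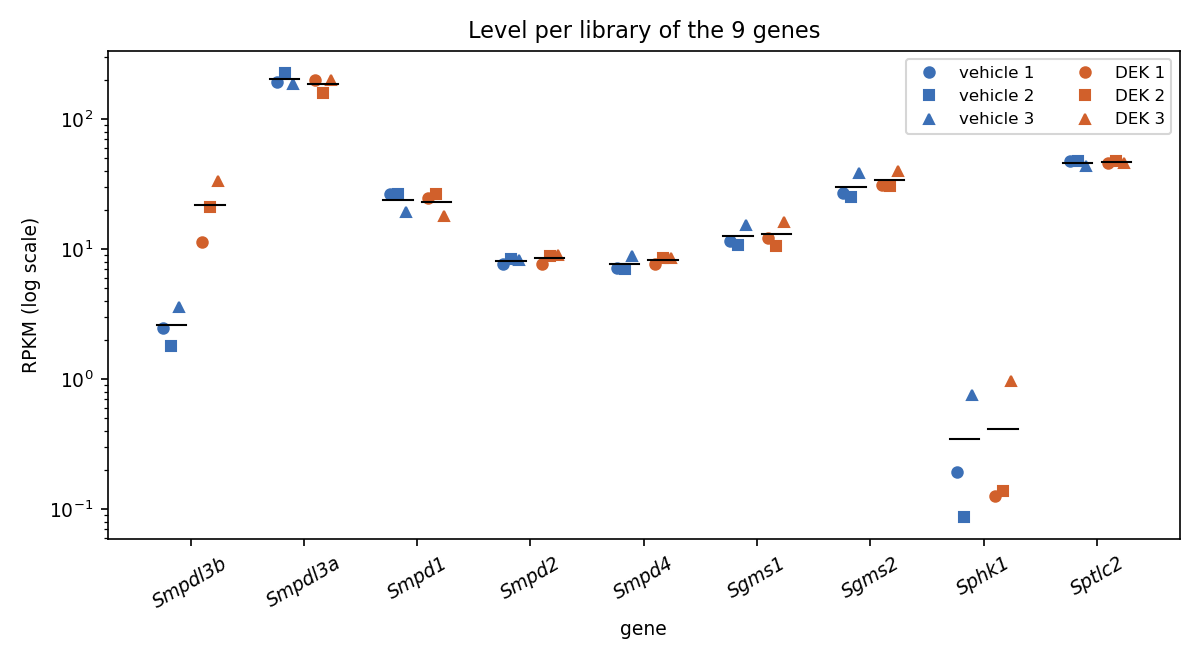
Level of each of the 9 genes in RPKM (CPM per kilobase of exon, log axis) in the 3 vehicle and 3 DEK libraries, 1 symbol per replicate number, with a bar at each mean. Smpdl3b is separated between the groups, at 1.79 to 3.60 with vehicle and 11.3 to 33.4 with DEK, and the points of the other 8 genes overlap.

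Smpdl3b is known from macrophages, so the other cell types of the preparation were set beside it. Summed monocyte markers (5 genes, none at 0) were 6046, 6434 and 4858 CPM with vehicle and 7327, 7533 and 5638 CPM with DEK, higher in each pair, with overlapping groups. Summed macrophage markers (9 genes, none at 0) were 1380, 1397 and 1125 CPM with vehicle and 1245, 1206 and 1006 CPM with DEK, lower in each pair. Summed eosinophil markers (7 genes, none at 0) were 14040, 12640 and 4571 CPM with vehicle and 10940, 7941 and 3265 CPM with DEK, also lower in each pair. Summed dendritic cell markers ran from 303.6 to 692.7 CPM with vehicle and from 363 to 607.4 CPM with DEK. Within pairs, edgeR called the monocyte markers Cx3cr1 (log2 fold change 0.63; adjusted p = 0.00827) and Ly6c2 (0.50; 0.0376) and the neutrophil marker Lcn2 (0.66; 0.0206) higher with DEK. It called the macrophage markers C1qb (-1.58; 0.0107) and C1qc (-1.15; 0.0339) and the eosinophil markers Epx (-0.66; 0.0107) and Prg3 (-0.55; 0.0382) lower. These markers were named after their values were seen, none passed without pairing, and Ly6c2 has near-identical relatives, so its count is uncertain. Of the other monocyte markers, Csf1r lay above 0 within pairs (0.39), and Ccr2 (-0.12) and F13a1 (-0.01) lay below. Of the other neutrophil markers, Ltf (0.36), Mmp8 (0.34), Camp (0.14) and Cxcr2 (0.09) lay above 0. Retnlg (-0.21), S100a9 (-0.10), S100a8 (-0.03) and Ngp (-0.01) lay below 0. The other macrophage and eosinophil markers all lay below 0. The part of these cell types in the Smpdl3b difference was not tested. In bulk RNA, a change in the number of cells of a type and a change in RNA per cell cannot be told apart. The neutrophil-rich libraries numbered 3 exceeded the mean of the other libraries of their group in Smpdl3b by 0.77 log2 units with vehicle and 1.11 with DEK, and the differences in pairs 1 and 2, without them, were 2.19 and 3.55.

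Per kilobase of exon, Smpdl3b moved in the order of the 9 genes. With vehicle it was at 2.62 ± 0.916 RPKM (SD, n = 3), below every member but Sphk1. With DEK it was at 22.0 ± 11.1 RPKM (SD, n = 3), and its libraries overlapped those of Sgms2, Smpd1 and Sgms1. Among all tested genes, its mean RPKM went from the 29.5th to the 72.7th percentile. In vehicle libraries the order from high to low was Smpdl3a at 204, Sptlc2 at 46.3, Sgms2 at 30.2, Smpd1 at 24.0, Sgms1 at 12.6, Smpd2 at 8.13, Smpd4 at 7.71, Smpdl3b at 2.62 and Sphk1 at 0.344 mean RPKM. Of these neighbours in the order, Sgms2 and Smpd1 overlapped across libraries, and so did Smpd2 and Smpd4. Apart from Smpdl3b, the order of the mean RPKM with DEK was the same.

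Within the acid sphingomyelinase family, Smpdl3a was by far the most abundant transcript in both groups. Smpdl3b held 1.10%, 0.701% and 1.71% of the summed RPKM of Smpdl3a, Smpd1 and Smpdl3b in vehicle libraries, and 4.81%, 10.3% and 13.4% in DEK libraries. The summed RPKM of the family overlapped between groups, at 211 to 256 with vehicle and 207 to 250 with DEK.

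No relative of Smpdl3b passed with or without pairing. Without pairing 0 of 13803 tested genes passed, so Smpdl3b did not pass either. That fit does not set it apart from its relatives. Smpdl3a (chr10:57794544-57811830, plus strand) was at 349, 407 and 338 CPM with vehicle and 357, 285 and 356 CPM with DEK. The DEK libraries lay within or below the vehicle range, and the pair differences were 0.03, -0.52 and 0.08 on the log2 scale. The fitted log2 fold change was -0.13 ± 0.15 (SE; 95% interval -0.49 to 0.22; adjusted p = 1, edgeR). Smpd1 (chr7:105554360-105558389, plus strand), the lysosomal acid sphingomyelinase, was at 63.6, 63.8 and 46.3 CPM with vehicle and 59.6, 64.6 and 43.3 CPM with DEK. Within pairs it differed by -0.09, 0.02 and -0.10, and the fitted log2 fold change was -0.05 ± 0.20 (SE; 95% interval -0.53 to 0.43; adjusted p = 1, edgeR). In each pair the difference of Smpdl3b exceeded that of Smpdl3a by 2.16, 4.07 and 3.13 log2 units and that of Smpd1 by 2.29, 3.53 and 3.30. Reads that fit several genes were looked for through shared sequence. In all, 0 of 1976 stretches of 31 bases in Smpdl3b transcripts and 0 of 2091 in Smpdl3a occur in transcripts of another gene, against 0.744% for Smpd1.

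**Figure D2:**
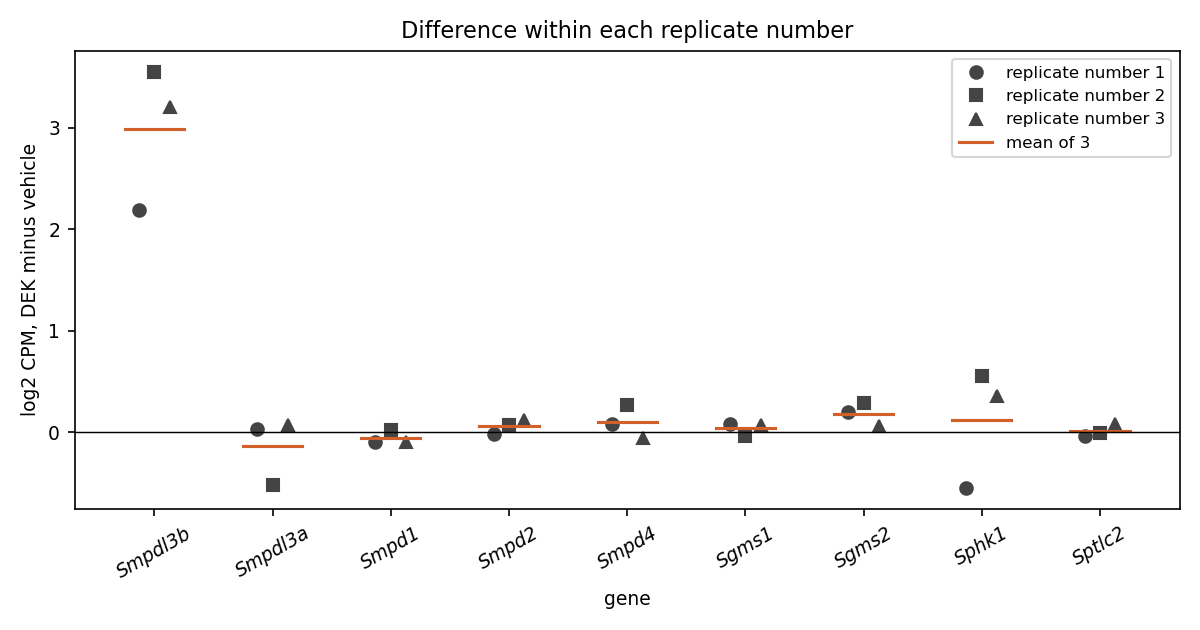
Log2 difference, DEK minus vehicle, of each of the 9 genes in log2 CPM within each replicate number (1 symbol per number), with a bar at the mean of the 3. Smpdl3b lies between 2.19 and 3.55, and the points of the other 8 genes lie between -0.55 and 0.55.

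Neither neutral sphingomyelinase passed with or without pairing, and both overlapped between groups. Smpd2 (chr10:41487172-41490340, minus strand) was at 12.4, 13.5 and 13.2 CPM with vehicle and 12.2, 14.2 and 14.4 CPM with DEK, a fitted log2 fold change of 0.06 within pairs (95% interval -0.21 to 0.33). Of the 31-base stretches in Smpd2 transcripts, 16.7% also occur in transcripts of Mical1, the largest shared fraction of the 9 genes, so its count is uncertain. Smpd4 (chr16:17619354-17644830, plus strand), an enzyme of the endoplasmic reticulum and nuclear envelope, was at 33.5, 32.9 and 41.5 CPM with vehicle and 35.6, 39.8 and 39.8 CPM with DEK. Its groups overlapped, and the fitted log2 fold change within pairs was 0.10 (95% interval -0.13 to 0.34).

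Neither synthase passed with or without pairing. Sgms2 (chr3:131318986-131344923, minus strand), the synthase of the plasma membrane, was at 158, 145 and 223 CPM with vehicle and 181, 177 and 232 CPM with DEK. It was the only other member with the same sign in all 3 pairs, by 0.20, 0.29 and 0.06 log2 units. Of all 13803 tested genes, 4718 had the same sign in all 3 pairs. The Sgms2 groups overlapped because library 3 was high in both. The log2 fold change of Sgms2 was 0.17 ± 0.20 (SE; adjusted p = 1) without pairing and 0.18 ± 0.09 (SE; 95% interval -0.02 to 0.39; adjusted p = 0.493) within pairs, both by edgeR. Sgms1 (chr19:32122727-32388454, minus strand), the Golgi synthase, was at 52.8, 48.9 and 69.3 CPM with vehicle and 56.0, 47.6 and 72.9 CPM with DEK. Its difference within pairs was 0.04 (95% interval -0.16 to 0.24).

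Sptlc2 and Sphk1, at the entry and the exit of the pathway, gave the narrowest and the widest interval of the 8. Sptlc2 (chr12:87307889-87388230, minus strand) was at 179, 179 and 164 CPM with vehicle and 174, 178 and 174 CPM with DEK, and its fitted log2 fold change was 0.01 ± 0.10 (SE; 95% interval -0.23 to 0.26; adjusted p = 1, edgeR). Sphk1 (chr11:116531911-116536675, plus strand) had only 22, 8 and 58 reads with vehicle and 13, 16 and 96 reads with DEK. Its libraries numbered 3 were higher by 2.35 log2 units with vehicle and 2.70 with DEK, more than any pair differed. The fitted log2 fold change was 0.26 ± 1.08 (SE; 95% interval -2.35 to 2.87; adjusted p = 1, edgeR) without pairing and 0.14 ± 0.41 (SE; 95% interval -0.74 to 1.03; adjusted p = 0.93, edgeR) within pairs.

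Across the 8 genes, 0 passed in the test without pairing, in which 0 of 13803 genes (0%) passed at all, 360 genes having an unadjusted p under 0.05. Within pairs 0 of the 8 passed, against 177 of 13803 genes (1.28%), of which 120 (0.869%) were higher and 57 (0.413%) lower with DEK. None of the 8 had an unadjusted p under 0.05 in either fit, and DESeq2 called none of them among its 58 genes. The adjusted p within pairs ran from 0.493 to 0.975. The median log2 fold change of the 8 within pairs was 0.05, beside -0.0028 over all tested genes, with 6 above 0 and 2 below. The upper 95% bound within pairs was highest for Sphk1 at 1.03 and next for Sgms2 at 0.39. Without pairing these bounds were 2.87 for Sphk1 and 0.66 for Sgms2. The smallest pair difference of Smpdl3b was 2.19, so the interval of Sphk1 without pairing reached past it. Smpdl3b was chosen for its rise, so this comparison is a description. Over 6 libraries, which share their group and depth, the correlation of log2 CPM with Smpdl3b ran from -0.534 for Smpdl3a to 0.61 for Smpd4.

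The rest of the sphingolipid pathway was described through 9 lists by step, which hold 59 further genes of the table, 52 of them tested. Within pairs 1 of the 52 fell and 0 rose, near the background of 1.28%, and without pairing 0 of the 52 passed, with 3 at an unadjusted p under 0.05. Within pairs 11 of the 52 had an unadjusted p under 0.05, a larger share than the 1581 of all 13803. The sign was uneven: 41 of the 52 (78.8%) lay below 0 within pairs, beside 50.6% of all tested genes, and the median log2 fold change was -0.09. Genes of these lists share libraries, so these shares are descriptions. All 6 tested genes of the ceramidase list lay below 0 (median -0.21), as did all 3 tested genes of ceramide transport and phosphorylation (median -0.26). Of glycosphingolipid breakdown, 10 of 11 genes lay below 0 (median -0.07). The ceramidase list includes Naaa, a related amidase, and Acer1, which had only 1 to 20 reads per library. Of the 12 ceramide synthesis genes that are not members, 7 lay below 0.

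Sptssa, a small subunit that activates serine palmitoyltransferase, was the gene that fell. It was at 188, 164 and 118 CPM with vehicle and 124, 111 and 98.2 CPM with DEK. All 3 pairs were lower, by -0.61, -0.56 and -0.26 log2 units, and the groups overlapped because vehicle 3 was below DEK 1. The log2 fold change was -0.48 ± 0.10 (SE; adjusted p = 0.037) within pairs and -0.50 ± 0.20 (SE; adjusted p = 1) without pairing, by edgeR. Leaving out pair 1 or pair 2 ended the call, with adjusted p of 0.19 and 0.796. Its exons overlap those of Mir1892, so its count is uncertain.

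In the other lists no gene passed in either fit, and genes with the smallest p of their list without pairing are given. Naaa, an amidase related to acid ceramidase, was at 411.0 ± 46.4 CPM (SD, n = 3) with vehicle and 324.5 ± 48.2 CPM (SD, n = 3) with DEK, and differed by -0.35 on the log2 scale within pairs (adjusted p = 0.141, edgeR). Kdsr, a reductase of ceramide synthesis, had groups that did not overlap, lower with DEK, and differed by -0.42 on the log2 scale within pairs (adjusted p = 0.135, edgeR). Of the 52 tested list genes, 2 had groups that did not overlap, beside 7.19% of all tested genes. Col4a3bp, the ceramide carrier between endoplasmic reticulum and Golgi, differed by -0.26 log2 units within pairs (adjusted p = 0.292, edgeR). Sphk2, the second sphingosine kinase, differed by 0.20 log2 units (adjusted p = 0.501) and overlaps Dbp on the opposite strand. B4galt6, which makes lactosylceramide, had 0.17 (adjusted p = 0.707), and Mfsd2b, an exporter of sphingosine 1-phosphate in blood cells, had -0.18 (adjusted p = 0.56). Smpd3, a neutral sphingomyelinase, had -0.10 (adjusted p = 0.902), and Samd8, a relative of the synthases, had -0.05 (adjusted p = 0.908).

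**Figure D3:**
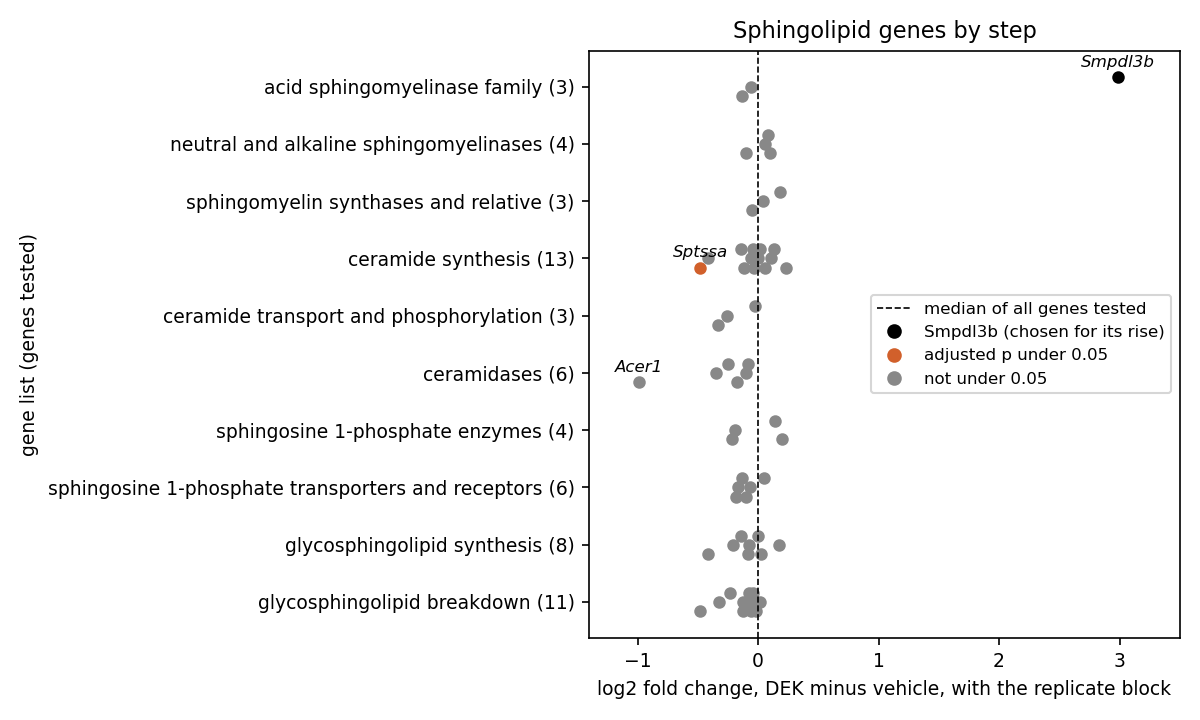
Log2 fold change within pairs (horizontal axis, DEK minus vehicle) of the tested genes of each sphingolipid list (rows), 1 point per gene, orange where the gene passed the test and black for Smpdl3b. The dashed line is the median of all tested genes, and Acer1, at -0.98, did not pass (adjusted p = 0.649, edgeR). Smpdl3b stands alone at 2.99, and 41 of the 52 genes that are not members lie below 0.

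The genes around Smpdl3b on chromosome 4 were compared to see whether its neighbours moved with it. All 6 genes with a span within 100 kb were tested, and 0 of them passed in either fit, beside 1.28% of all genes within pairs. Xkr8, a phospholipid scramblase gene 0.42 kb beyond the 3′ end of Smpdl3b, was at 11.7, 13.01 and 12.6 CPM with vehicle and 14.1, 15.5 and 15.4 CPM with DEK. It was the only neighbour whose groups did not overlap, beside 7.19% of all tested genes in either direction and 3.78% with DEK above. Its log2 fold change within pairs was 0.27 ± 0.12 (SE; adjusted p = 0.439, edgeR), against 2.99 for Smpdl3b. Themis2, a signalling adaptor of macrophages and B cells 25.2 kb away, differed by -0.12, 0.14 and 0.87 log2 units in the 3 pairs (adjusted p = 0.651 within pairs, edgeR). Eya3, Rpa2, Ppp1r8 and Stx12 had log2 fold changes within pairs of 0.04, 0.14, 0.10 and -0.01. The exons of Smpdl3b overlap no other gene in the table.

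**Figure D4:**
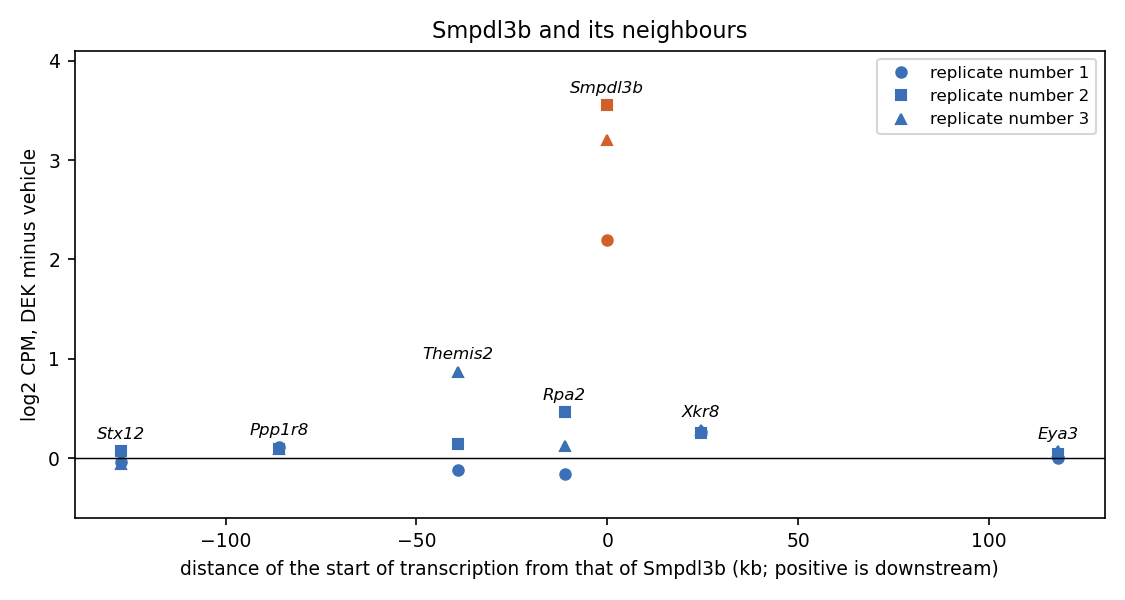
Log2 CPM difference, DEK minus vehicle, within each replicate number (1 symbol per number) for Smpdl3b and the 6 tested genes within 100 kb, against the distance between starts of transcription in kb. Smpdl3b lies between 2.19 and 3.55, and the highest point of a neighbour is 0.87, for Themis2.

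The genes with the pattern most like Smpdl3b were found by the Pearson correlation of log2 CPM over the 6 libraries, among 2952 genes averaging 1 CPM or more and spanning 1 log2 unit or more. The first 10 were Cxcl16 (r = 0.992), Il2rg (0.990), Clec4e (0.988), Cd80 (0.986), Tlr2 (0.980), Dcstamp (0.980), Traf1 (0.977), Col4a1 (0.970), Slc2a6 (0.966) and Ptges (0.966). These correlations are descriptions, and the points share the 2 groups, so a difference between the groups is part of each r. None of the other 8 members met the floors on level and range, so they could not enter this list. Clec4e, a receptor of mycobacterial glycolipid, was at 163, 125 and 185 CPM with vehicle and 350.0, 400.1 and 452.1 CPM with DEK. Tlr2, the receptor of bacterial lipoproteins, was at 247, 213 and 222 CPM with vehicle and 364, 465 and 523 CPM with DEK. Cxcl16, a membrane-bound chemokine, was at 28.6, 22.2 and 29.3 CPM with vehicle and 46.4, 54.1 and 64.4 CPM with DEK, and it overlaps Zmynd15 on the opposite strand, so its count is uncertain. In all 10 the groups did not overlap, as in 3.78% of tested genes with DEK above, which follows in part from how they were found. Their log2 fold changes within pairs ran from 0.72 for Cd80 to 1.36 for Clec4e, below the 2.99 of Smpdl3b.

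**Figure D5:**
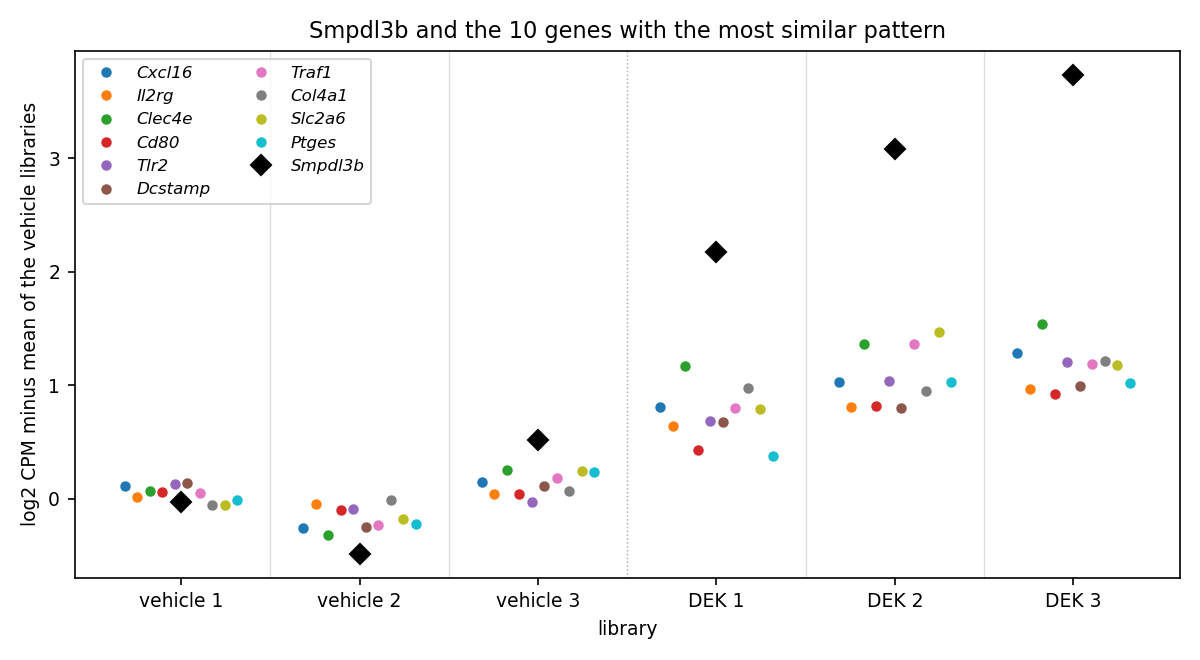
Log2 CPM minus the mean of the vehicle libraries, for Smpdl3b (diamonds) and the 10 genes most correlated with it (circles), in each of the 6 libraries. All 11 genes are higher in the DEK libraries, and Smpdl3b is the highest point in each of them.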

How the data were processed

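Read counts per gene were deposited by the authors as 1 table of 6 libraries. Per the file headers, featureCounts 1.6.1 summed reads in exons for each gene (mm10) with no strand option, so reads of opposite-strand genes cannot be told apart. Per the labels' protocols, libraries were strand-specific and made from polyadenylated RNA. The submitters' processing notes list edgeR, HTSeq, STAR and Trim Galore, but the header, which was followed here, shows featureCounts as the counter.

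Of 18049 genes with a read, 13803 passed filterByExpr and were tested in R 4.3.3 with edgeR 4.0.16 (TMM, robust quasi-likelihood test, two-sided, Benjamini-Hochberg over all tested genes, threshold 0.05). DESeq2 1.42.0 and limma 3.58.1 were alternatives. Log2 CPM used a prior count of 2, and RPKM is CPM per kilobase of the exon length in the table. Depth was 34875736 to 49128378 counts, and the scripts were tested on simulated data.

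The main fit had no replicate block. The labels do not say what equal numbers share. Deviations from the group means correlated by 0.552, 0.558 and 0.799 for equal numbers, each over 0.1, so the numbers were taken as pairs. Numbers 1 and 2 also correlated across, by 0.523 and 0.408. "Within pairs" means the fit with the replicate block.

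The members and lists were chosen with earlier results of these data known. Named genes are the members, from each list the genes that passed (otherwise the smallest p without the block), the tested genes within 100 kb, and the 10 most correlated genes. Kdsr, whose groups did not overlap, and Psap were named after their values were seen. Where a symbol had no row, its older name was used, as for Cert1 (Col4a3bp) and Gltpd1 (Cptp). Of the list genes the rule names, 1 is not reported here. Promoters and motif matches came from RefSeq sequences, and shared 31-base stretches from GENCODE transcripts of the same build.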

Additional observations from a re-analysis of the deposited data

How the results depend on the processing

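For the 8 members other than Smpdl3b, 112 of 128 values under the alternatives kept their direction and their side of the threshold and 16 changed sign, none of which passed. Smpdl3b, which is given with no test, was higher with DEK in all 16 alternatives. It was chosen for this difference and its groups did not overlap, so this count adds no support. No alternative called any of the 8 members other than Smpdl3b, but many alternatives called no gene at all. DESeq2 size factors, no filter on low counts without pairing, and limma-voom each called 0 genes over the whole table. In such settings no member could change its side of the threshold, so the absence of a call there says nothing about the members. The count of called genes over the whole table was 0 in the main fit and varied with the setting: 58 with DESeq2, 177 with the replicate block, 349 with the replicate block and no filter on low counts, and 181, 0 and 641 with the replicate block leaving out pair 1, 2 or 3. Leaving out 1 library without pairing gave 0 to 1. Without both libraries numbered 3 and without pairing, an alternative added after the data were seen, it was 168. List genes called were 0 in the main fit, 1 with the replicate block with or without the filter, 3 with the replicate block leaving out pair 3 and 2 without both libraries numbered 3. Sign changes with the replicate block were Smpdl3a at 0.065 and Sphk1 at -0.006 without pair 2, and Sphk1 at -0.044 and Sptlc2 at -0.020 without pair 3. Without both libraries numbered 3, Sphk1 was at -0.115 and Sptlc2 at -0.020. Leaving out 1 library in turn gave -0.188 to 0.098 for Smpd1, -0.142 to 0.213 for Sgms1, -1.364 to 1.519 for Sphk1 and -0.024 to 0.034 for Sptlc2. The cause of these changes was not tested. The replicate block changed no call of the 8 members and added that of Sptssa. Sphk1 had as few as 8 reads in a library, and its SE went from 1.08 without the replicate block to 0.41 with it.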

Other observations

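Psap, which encodes the saposins that help lysosomal enzymes to degrade sphingolipids, was among the most abundant transcripts of the lists, at 8881, 9594 and 6002 CPM with vehicle and 5405, 6056 and 5769 CPM with DEK. The vehicle libraries 1 and 2 were high and vehicle 3 lay within the DEK range. Its log2 fold change within pairs was -0.48 ± 0.14 (SE; adjusted p = 0.178, edgeR). It was -0.69 (adjusted p = 0.00108, edgeR) when pair 3, rich in neutrophil markers, was left out. In that setting 641 genes of the whole table passed, beside 177 with all pairs. The part of neutrophils or other cells in the Psap difference was not tested.

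Between the libraries numbered 3 and the rest, every member but Smpdl3a differed with the same sign in both groups, some by little. Sphk1, Smpdl3b, Sgms2 and Sgms1 were higher in number 3, and Smpd1 was lower, with differences of -0.46 log2 units with vehicle and -0.52 with DEK. The values for Sgms1 were 0.45 with vehicle and 0.50 with DEK. Smpdl3a differed in sign between the groups, at -0.16 with vehicle and 0.16 with DEK, and Smpd4 was at 0.32 with vehicle and 0.08 with DEK. Smpd2 was at 0.03 and 0.13, and Sptlc2 at -0.12 and -0.02. Summed neutrophil markers moved with this split, and so did summed erythroid, eosinophil and B cell markers. Erythroid markers (Hbb-bs, Hbb-bt and Hba-a1 at 0) were 1627 CPM in vehicle 3 and 2743 CPM in DEK 3, against 479.1 to 696.4 CPM elsewhere. Eosinophil markers were 4571 and 3265 CPM there, against 7941 to 14040 CPM. B cell markers were 85.55 and 103.1 CPM, against 218.8 to 253.3 CPM. The part of these cell types in the split was not tested.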
